A study of Mus musculus with 16 samples.

Results

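The expression of 36 genes of cholesterol and fatty acid synthesis was followed in mouse kidney. The genes were listed by name, and all 36 were among the 52338 genes of the count table. A sterol set of 20 genes held 16 enzymes, the transcription factor Srebf2, its retention proteins Insig1 and Insig2 and the sterol carrier Stard4. A fatty acid set of 16 genes held 10 enzymes that make, lengthen or desaturate fatty acids, the glycerolipid enzymes Gpam, Dgat1 and Dgat2, and the regulators Srebf1, Mlxipl and Thrsp. The 4 groups were C57BL6 mice given FAN and fed on a time-restricted schedule, given FAN and fed ad libitum, given vehicle and fed on a time-restricted schedule, or given vehicle and fed ad libitum, with 4 libraries each. All groups ate a high-fat diet. Kidneys were taken at day 15. FAN is not written out in the labels, although every column name of the count table contains the word folic. The labels give neither age nor pooling of animals. Nothing in them says that the libraries of a group came from separate animals, so p-values measure the spread between these libraries.

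Cells make cholesterol from acetyl-CoA through mevalonate, squalene and lanosterol, and fatty acids from the same precursor through malonyl-CoA. When membrane sterol is low, the SREBP proteins, encoded by Srebf1 and Srebf2, leave the endoplasmic reticulum, where the INSIG proteins otherwise hold them, and their cleaved forms switch on most of these enzymes. ChREBP, the product of Mlxipl, answers to sugar and drives genes of fatty acid synthesis. In the kidney, cells of the proximal tubule burn fatty acids for energy, while the fat beside the organ also makes and stores them.

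Total counts were 12450812 to 28255417 in FAN time-restricted, 19266923 to 33035197 in FAN ad libitum, 14124323 to 31699747 in vehicle time-restricted and 18788303 to 33976660 in vehicle ad libitum libraries. A filter on low counts left 17731 genes for testing, among them all 36 members. The 14 proximal tubule markers summed to 14800 to 18900 CPM, which are counts scaled to a common library total, in FAN time-restricted, 3740 to 6690 in FAN ad libitum, 25500 to 32100 in vehicle time-restricted and 24000 to 27700 CPM in vehicle ad libitum libraries. The defining markers of kidney were thus present in every library. The 10 macrophage markers summed to 1010 to 1990, 2090 to 3090, 142 to 202 and 156 to 289 CPM in the same order of groups. The 9 genes of the adrenal cortex, the gland beside the kidney, summed to 17 to 23.1 CPM in FAN time-restricted, 28 to 34.7 in FAN ad libitum, 9.4 to 16.1 in vehicle time-restricted and 9.52 to 15.2 CPM in vehicle ad libitum libraries. Of the 4 that could be tested 3 rose with FAN under ad libitum and 1 under time-restricted feeding, where 32.1% and 24.5% of all genes tested rose. The lipoprotein receptor Scarb1 reached 25.4 CPM, Star 5.7, Akr1b7 2.66 and Mc2r 2.63 CPM, each highest in a FAN ad libitum library. The steroid enzyme Cyp11b2 was at 0 in every library, and Cyp11a1, Cyp11b1, Cyp21a1 and Nr5a1 never exceeded 9, 2, 7 and 1 counts. The part of this gland in the members' changes was not tested. In bulk tissue, fewer cells of a type and less RNA per cell cannot be told apart. The TMM scaling factors were 1.32 to 1.53 in FAN ad libitum and 0.816 to 0.975 in all other libraries, so counts and set medians that involve FAN ad libitum are also given with plain scaling to library size. Mitochondrial genes took 21.4 to 26.7% of counts in FAN time-restricted, 6.94 to 14.8% in FAN ad libitum, 18 to 20.9% in vehicle time-restricted and 17.2 to 22.8% in vehicle ad libitum libraries. The part of this share in the results was not tested. The column names carry a number after the letter S, whose meaning the labels do not state and which falls into 3 runs. The lowest run held FAN time-restricted 6, FAN ad libitum 6 and 7 and libraries 1 and 2 of both vehicle groups, the middle run the other vehicle libraries and the highest run the other FAN libraries. A difference between FAN and vehicle could therefore be checked within the lowest run alone, where the single FAN time-restricted library is assumed to vary like the other groups. The FAN ad libitum group was split between 2 runs. Its mitochondrial share was 7.29 and 6.94% in libraries 6 and 7, and 14.8 and 12.1% in libraries 10 and 12.

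Kidneys of FAN mice had lower levels of a large part of the cholesterol pathway and of a few fatty acid genes, and time-restricted feeding went with higher levels of several of the same enzymes within FAN mice. Under ad libitum feeding, 19 of the 36 members (52.8%) fell with FAN at an adjusted p under 0.05 and 3 rose (10 fell and 13 rose with library size scaling), while 28.6% of all genes tested fell and 32.1% rose (60.7% called in either direction). Under time-restricted feeding 17 members (47.2%) fell and 1 rose, against 19% of all genes down and 24.5% up (43.5% in either direction). Between feeding regimens in FAN mice, 10 members (27.8%) were higher and 4 lower in time-restricted libraries (6 and 21 with library size scaling), against 17.9% and 13.9% of all genes (31.8% in either direction). Most of these calls were in the sterol set, which also holds most of the members (20 of 36). With FAN 11 of its 20 genes (55%) fell and none rose under time-restricted feeding. Under ad libitum feeding 13 (65%) fell and 1 rose (6 and 6 with library size scaling). In the fatty acid set 6 of 16 genes (37.5%) fell and 1 rose under time-restricted feeding. Under ad libitum feeding 6 (37.5%) fell and 2 rose (4 and 7 with library size scaling).

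The median log2 change of the sterol set, FAN over vehicle, was −0.44 under time-restricted and −0.70 under ad libitum feeding, where the medians of all genes tested were 0.05 and 0.06. The median of the fatty acid set was −0.68 under time-restricted and −0.24 under ad libitum feeding. Without vehicle time-restricted 2 and vehicle ad libitum 3, which had the highest adipocyte markers, the time-restricted median of the fatty acid set was −0.19 and that of the sterol set −0.42. Scaled to library size, the median of all genes under ad libitum feeding moved to 0.76, that of the sterol set to −0.01 and that of the fatty acid set turned to 0.46. The members split into 13 up and 10 down under this scaling, with 83.9% of the called genes up in place of 52.8%. The 10 that still fell were Acss2, Cyp51, Dgat2, Mvd, Hmgcs1, Ebp, Acat2, Fads2, Mlxipl and Nsdhl, at log2 changes of −1.84 to −0.61, against −2.53 to −1.32 with TMM scaling. Under time-restricted feeding the same scaling left 12 members down and 1 up, with all genes at a median of 0.16. Of the 19 members down under ad libitum feeding, 15 were also down under time-restricted feeding (78.9% of those 19 and 88.2% of the 17). For 14 of the 15 the fall was the smaller under time-restricted feeding, Dgat1 being the exception, whereas with library size scaling this held for 6 of the 15. The same share was not counted for the 2932 genes down in both comparisons. Of all genes tested, the interaction described below was positive for 7.76% and negative for 1.4%. Among all genes, 57.7% of those down under ad libitum feeding were also down under time-restricted feeding. Of those down under time-restricted feeding, 87% were also down under ad libitum feeding. FAN libraries lay entirely below vehicle libraries for 13 members and above for 1 under time-restricted feeding (17.9% and 22.4% of all genes), and below for 18 and above for 2 under ad libitum feeding (25.9% and 29% of all genes). With the run of S numbers in the model, 9 members were down and 2 up under time-restricted feeding (28.1% of all genes called). Of the time-restricted calls, those of Lss (−0.44, adjusted p = 0.065), Pmvk (−0.48, adjusted p = 0.135) and Acat2 (−0.35, adjusted p = 0.113) missed the threshold in that model. So did those of Sqle (−0.1, adjusted p = 0.717), Acaca (−0.52, adjusted p = 0.338), Hmgcs1, Fads2 and Dgat2. Those of Sc5d (−0.44, adjusted p = 0.162), Insig1 (−0.61, adjusted p = 0.0613) and Acat2 (−0.61, adjusted p = 0.052) missed it within the lowest run.

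**Figure D1:**
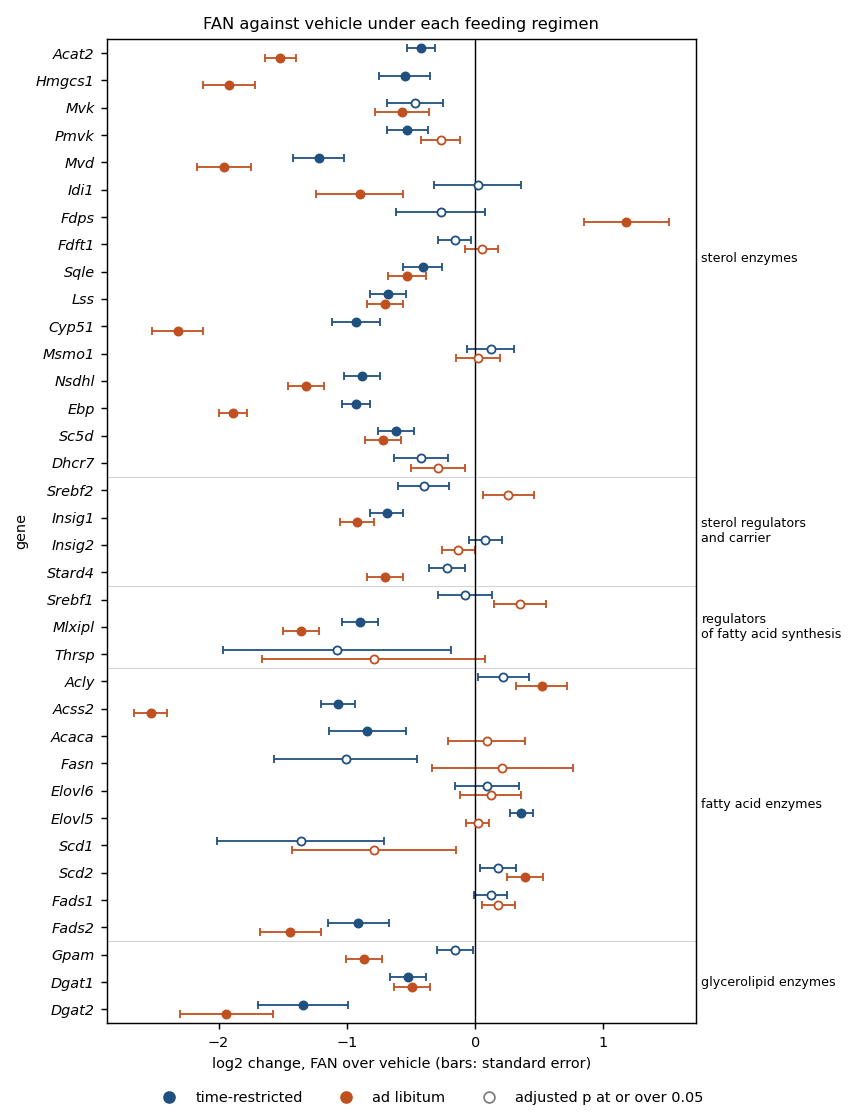
Log2 change of each of the 36 members, FAN over vehicle, under time-restricted (blue) and ad libitum feeding (orange), with the standard error as a bar and open points where the adjusted p was 0.05 or higher. Most sterol enzymes lie left of 0 under both regimens, with Acss2 at −1.07 and −2.53 and Cyp51 at −0.93 and −2.32, whereas with scaling to library size 13 members lie to the right and 10 to the left at an adjusted p under 0.05 under ad libitum feeding.

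The promoters of 8 members are shown first, because 6 of these genes (Acss2, Acat2, Hmgcs1, Cyp51, Ebp and Gpam) are those whose FAN change differed by feeding regimen, Mvd fell with FAN under both regimens and Msmo1 passed no test with TMM scaling over all libraries. RefSeq promoters on GRCm38.p6, each from 250 bases before to 50 bases after a start, were at hand for 27 of the 36 members, in 36 promoters because some genes have several starts. Those printed are chr2:155517793-155518092 (plus strand) for Acss2, chr17:12960676-12960975 (minus strand) for Acat2, chr13:119690101-119690400 (plus strand) for Hmgcs1, chr8:122443373-122443672 (minus strand) for Mvd, chr5:4104648-4104947 (minus strand) for Cyp51, chr8:64733529-64733828 (minus strand) for Msmo1, chrX:8193463-8193762 (minus strand) for Ebp and chr19:55127189-55127488 (minus strand) for Gpam. Each runs 5′ to 3′ on the strand of the gene, and capitals mark 2 motifs searched on both strands, the sterol regulatory element form TCACNCCAC and the NF-Y box CCAAT, which on the other strand reads ATTGG. The E-box CACGTG was searched too and is in none of the 8.
Acss2: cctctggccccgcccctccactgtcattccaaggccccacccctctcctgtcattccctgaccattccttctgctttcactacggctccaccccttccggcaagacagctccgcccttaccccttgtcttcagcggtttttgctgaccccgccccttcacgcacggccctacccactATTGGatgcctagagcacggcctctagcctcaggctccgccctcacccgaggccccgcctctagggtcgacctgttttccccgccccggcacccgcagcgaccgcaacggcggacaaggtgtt
Acat2: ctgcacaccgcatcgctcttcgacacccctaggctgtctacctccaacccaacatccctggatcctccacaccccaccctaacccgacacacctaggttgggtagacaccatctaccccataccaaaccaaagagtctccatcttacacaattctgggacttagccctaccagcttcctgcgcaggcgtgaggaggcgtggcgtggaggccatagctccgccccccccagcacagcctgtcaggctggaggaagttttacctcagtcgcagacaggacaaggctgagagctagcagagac
Hmgcs1: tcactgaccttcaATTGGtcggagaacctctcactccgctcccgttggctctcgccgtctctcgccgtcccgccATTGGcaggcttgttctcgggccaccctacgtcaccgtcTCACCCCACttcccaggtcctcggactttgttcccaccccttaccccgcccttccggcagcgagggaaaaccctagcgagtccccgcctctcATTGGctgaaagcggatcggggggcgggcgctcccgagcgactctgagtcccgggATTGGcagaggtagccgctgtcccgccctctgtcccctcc
Mvd: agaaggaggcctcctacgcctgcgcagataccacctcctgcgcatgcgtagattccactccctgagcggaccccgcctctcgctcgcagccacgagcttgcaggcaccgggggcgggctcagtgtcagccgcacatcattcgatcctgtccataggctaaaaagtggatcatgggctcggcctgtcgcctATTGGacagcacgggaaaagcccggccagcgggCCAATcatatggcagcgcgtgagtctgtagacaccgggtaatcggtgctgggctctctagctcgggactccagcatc
Cyp51: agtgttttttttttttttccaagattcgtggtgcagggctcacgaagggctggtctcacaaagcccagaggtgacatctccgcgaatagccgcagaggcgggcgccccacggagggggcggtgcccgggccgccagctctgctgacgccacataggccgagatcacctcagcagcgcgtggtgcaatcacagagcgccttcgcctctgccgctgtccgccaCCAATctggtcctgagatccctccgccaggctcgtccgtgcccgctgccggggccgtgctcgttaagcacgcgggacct
Msmo1: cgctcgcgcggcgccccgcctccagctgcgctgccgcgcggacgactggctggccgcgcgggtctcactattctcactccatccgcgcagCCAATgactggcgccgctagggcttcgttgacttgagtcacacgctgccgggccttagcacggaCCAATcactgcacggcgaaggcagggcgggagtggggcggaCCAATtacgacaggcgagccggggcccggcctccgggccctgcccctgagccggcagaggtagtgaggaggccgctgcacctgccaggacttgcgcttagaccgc
Ebp: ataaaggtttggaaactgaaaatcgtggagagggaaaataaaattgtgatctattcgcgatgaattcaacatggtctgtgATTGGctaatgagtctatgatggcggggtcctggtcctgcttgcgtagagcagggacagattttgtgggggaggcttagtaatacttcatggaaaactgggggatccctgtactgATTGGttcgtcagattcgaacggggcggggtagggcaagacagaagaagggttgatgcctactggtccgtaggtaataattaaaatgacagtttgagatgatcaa
Gpam: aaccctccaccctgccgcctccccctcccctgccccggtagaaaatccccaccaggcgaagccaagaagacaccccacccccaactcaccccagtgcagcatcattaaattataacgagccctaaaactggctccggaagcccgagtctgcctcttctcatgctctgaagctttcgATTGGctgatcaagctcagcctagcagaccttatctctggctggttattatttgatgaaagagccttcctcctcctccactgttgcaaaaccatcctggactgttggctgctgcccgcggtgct

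The sterol element form occurred in 2 of the 36 member promoters (5.56%), those of Hmgcs1 and Mlxipl, against 1.24% of all 32851 promoters. In the Hmgcs1 promoter it began 137 bases before the start, among 4 CCAAT boxes. CCAAT was present in 24 member promoters (66.7%), against 37.4% of all, and CACGTG in 5 (13.9%), against 7.15%. These matches describe the letters only. Acat2, whose FAN change was among the most regimen-dependent, had none of the 3 motifs in this window, and Msmo1, which passed no test with TMM scaling over all libraries, had 3 CCAAT boxes.

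The entry steps of the sterol pathway fell with FAN under both regimens, but neither time-restricted call passed with the run of S numbers in the model. Acat2 was then at −0.35 under time-restricted feeding (adjusted p = 0.113). Library values are given in the order of the library numbers, which are 6, 10, 11 and 12 for FAN time-restricted, 6, 7, 10 and 12 for FAN ad libitum and 1 to 4 for both vehicle groups. Acat2, which joins acetyl-CoA into acetoacetyl-CoA, had 69.3, 75.4, 67.5 and 81.1 CPM in FAN time-restricted and 38.1, 35, 31.1 and 27.9 CPM in FAN ad libitum libraries, against 115, 87.6, 94.6 and 95.6 CPM in vehicle time-restricted and 99.7, 92.4, 95 and 92 CPM in vehicle ad libitum libraries. Each FAN group lay below its vehicle group with no overlap, and FAN ad libitum lay below FAN time-restricted. The log2 change, FAN over vehicle, was −0.42 ± 0.11 (SE, adjusted p = 0.00603) under time-restricted and −1.52 ± 0.12 (adjusted p = 4.51e-09) under ad libitum feeding. Reads of its close copy Acat3, which the count table lists with 4531 counts over all libraries against 28991 for Acat2, may be shared with it.

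Hmgcs1, the cytosolic synthase that adds the next acetyl unit, had 618, 413, 276 and 409 CPM in FAN time-restricted and 166, 142, 133 and 115 CPM in FAN ad libitum libraries. Vehicle libraries had 781, 520, 546 and 674 CPM under time-restricted and 597, 524, 495 and 484 CPM under ad libitum feeding. The 4 FAN ad libitum libraries were the lowest of all 16, while FAN time-restricted libraries spread widely and overlapped with their vehicle group. The fall with FAN was −1.92 ± 0.20 on the log2 scale under ad libitum feeding (adjusted p = 2.67e-07) and −0.55 ± 0.20 under time-restricted feeding (adjusted p = 0.0308). The second of these was −0.14 (adjusted p = 0.726) within the lowest run of S numbers, and −0.28 (adjusted p = 0.371) with the run in the model. It also missed the threshold without FAN time-restricted 10, 11 or 12, or vehicle time-restricted 1 or 4, at an adjusted p of 0.0577 to 0.111, and with library size scaling (adjusted p = 0.0634). An antisense gene model, Gm48342, covers 12.1% of the Hmgcs1 exons.

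Of the kinases and the decarboxylase of the mevalonate branch, Mvd, the decarboxylase, fell most. Its levels were 23.6, 24.2, 23.1 and 28 CPM in FAN time-restricted and 20.6, 18, 12.3 and 9.59 CPM in FAN ad libitum libraries, against 60.6, 64.6, 63.1 and 40.9 CPM in vehicle time-restricted and 45.7, 62.5, 59.9 and 67.7 CPM in vehicle ad libitum libraries. No FAN library reached the lowest vehicle library. The log2 changes with FAN were −1.22 ± 0.20 under time-restricted (adjusted p = 0.000114) and −1.96 ± 0.21 under ad libitum feeding (adjusted p = 2.31e-07). Mvk and Pmvk, the kinases, changed less. Mvk averaged 4.94 ± 0.643 CPM in FAN ad libitum and 7.33 ± 1.30 CPM in vehicle ad libitum libraries (SD, n = 4 each), a fall of 0.57 on the log2 scale (adjusted p = 0.0272) that missed the threshold when any 1 of 5 libraries (vehicle ad libitum 2 or 3, FAN ad libitum 6, 10 or 12) was left out, and that was 0.13 (adjusted p = 0.624) with library size scaling. Pmvk averaged 13.1 ± 2.42 CPM in FAN time-restricted and 19 ± 2.90 CPM in vehicle time-restricted libraries (SD, n = 4 each), and fell by 0.53 (adjusted p = 0.0104).

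The isoprenoid and squalene steps gave a mixed picture. Idi1, the isomerase of isopentenyl diphosphate, averaged 5.22 ± 0.801 CPM in FAN ad libitum and 9.69 ± 3.63 CPM in vehicle ad libitum libraries (SD, n = 4 each), and its fall of 0.90 on the log2 scale (adjusted p = 0.0303) missed the threshold when vehicle ad libitum 2 or 3 or FAN ad libitum 6, 7 or 12 was left out, and with library size scaling (−0.22, adjusted p = 0.563). Fdps, farnesyl diphosphate synthase, had 7 to 63 counts per library, with 0.973, 0.394, 0.432 and 0.65 CPM in FAN time-restricted and 1.32, 1.25, 0.867 and 1.06 CPM in FAN ad libitum libraries. Levels in vehicle libraries were 0.593, 0.673, 1.03 and 0.652 CPM under time-restricted and 0.37, 0.631, 0.431 and 0.568 CPM under ad libitum feeding. It was the only sterol member that rose with FAN under ad libitum feeding, by 1.18 ± 0.33 on the log2 scale (adjusted p = 0.00513), with no overlap of the groups. Its value is uncertain, since the gene model Gm43738 shares 26.7% of its exon bases on the same strand. Fdft1, squalene synthase, averaged 30.5 ± 5.98, 32.1 ± 1.71, 34.2 ± 3.95 and 31 ± 1.49 CPM in FAN time-restricted, FAN ad libitum, vehicle time-restricted and vehicle ad libitum libraries (SD, n = 4 each), and passed no test over all libraries with TMM scaling. Scaled to library size it was at 0.74 with FAN under ad libitum feeding (adjusted p = 0.000239), −0.70 between FAN regimens (adjusted p = 0.000659) and −0.80 for the interaction (adjusted p = 0.00915). Its exons overlap those of Ctsb on the opposite strand over 18.3% of their bases. Sqle, squalene epoxidase, averaged 48.4 ± 7.25 CPM in FAN time-restricted and 46.9 ± 4.56 CPM in FAN ad libitum libraries, against 64.2 ± 6.41 CPM in vehicle time-restricted and 67.8 ± 14.5 CPM in vehicle ad libitum libraries (SD, n = 4 each). Its falls of 0.41 and 0.53 on the log2 scale (adjusted p = 0.0364 and 0.00537) under time-restricted and ad libitum feeding became −0.17 and −0.29 within the lowest run of S numbers (adjusted p = 0.688 and 0.314). The time-restricted call also missed the threshold without FAN time-restricted 10, 11 or 12 or vehicle time-restricted 2, 3 or 4, at an adjusted p of 0.0545 to 0.0906, and with library size scaling (adjusted p = 0.13). The ad libitum value under that scaling was 0.17 (adjusted p = 0.347).

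Among the enzymes that turn squalene epoxide into cholesterol, Cyp51 and Ebp fell most. Lss, lanosterol synthase, had 12.6, 11.7, 10.5 and 13.8 CPM in FAN time-restricted and 15, 18.2, 11.7 and 12.1 CPM in FAN ad libitum libraries, against 19.6, 20, 20.5 and 17.5 CPM in vehicle time-restricted and 23.6, 21.9, 23.3 and 24.2 CPM in vehicle ad libitum libraries. All FAN libraries except FAN ad libitum 7 were below 17.5 CPM, the lowest vehicle value. The falls were 0.68 ± 0.14 under time-restricted (adjusted p = 0.000672) and 0.70 ± 0.14 under ad libitum feeding (adjusted p = 0.000204), the second of which was 0.01 with library size scaling (adjusted p = 0.971). Cyp51, the lanosterol demethylase, had 265, 130, 135 and 187 CPM in FAN time-restricted and 73, 61, 84.5 and 72.9 CPM in FAN ad libitum libraries, against 291, 346, 335 and 394 CPM in vehicle time-restricted and 300, 421, 359 and 372 CPM in vehicle ad libitum libraries. The FAN ad libitum libraries were the lowest of all 16, and FAN time-restricted 6 came close to the lowest vehicle library. The log2 changes were −0.93 ± 0.19 (adjusted p = 0.000782) under time-restricted and −2.32 ± 0.20 (adjusted p = 2.07e-08) under ad libitum feeding. Within the lowest run of S numbers they were −0.34 (adjusted p = 0.333) and −2.46 (adjusted p = 5.89e-05).

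Ebp, the sterol isomerase, set both FAN groups apart. It had 105, 100, 112 and 88.4 CPM in FAN time-restricted and 55.8, 48.9, 48.1 and 47.1 CPM in FAN ad libitum libraries. Vehicle libraries had 188, 195, 190 and 200 CPM under time-restricted and 176, 171, 185 and 211 CPM under ad libitum feeding. The FAN groups overlapped neither with each other nor with vehicle, while the vehicle groups overlapped. The changes with FAN were −0.93 ± 0.11 (adjusted p = 1.83e-06) under time-restricted and −1.89 ± 0.11 (adjusted p = 2.4e-10) under ad libitum feeding. Nsdhl, which removes a methyl group from the lanosterol skeleton, had 45.2, 37.9, 37.3 and 37 CPM in FAN time-restricted and 32.9, 32.7, 21.7 and 23.5 CPM in FAN ad libitum libraries, against 87.5, 68.2, 69.2 and 64.6 CPM in vehicle time-restricted and 65.1, 68.7, 73.1 and 71 CPM in vehicle ad libitum libraries. Again every FAN library was below every vehicle library. Its changes were −0.88 ± 0.14 (adjusted p = 7.06e-05) under time-restricted and −1.32 ± 0.14 (adjusted p = 2.59e-07) under ad libitum feeding.

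Sc5d, a sterol desaturase, averaged 35.9 ± 6.05 CPM in FAN time-restricted and 28.9 ± 1.98 CPM in FAN ad libitum libraries, against 55.2 ± 10.4 CPM in vehicle time-restricted and 47.6 ± 4.12 CPM in vehicle ad libitum libraries (SD, n = 4 each). It fell by 0.62 and 0.72 on the log2 scale under the time-restricted and ad libitum regimens (adjusted p = 0.00169 and 0.00023), and with library size scaling the ad libitum value was −0.03 (adjusted p = 0.865). Msmo1, the oxidase that works with Nsdhl, and Dhcr7, the reductase of the last step, passed no test over all libraries with TMM scaling. Their FAN changes were 0.12 and −0.42 under time-restricted and 0.02 and −0.29 under ad libitum feeding. With library size scaling Msmo1 was higher by 0.71 with FAN under ad libitum feeding (adjusted p = 0.00136), and both genes were lower by 0.80 in time-restricted than in ad libitum libraries of FAN mice (adjusted p = 0.000748 for Msmo1 and 0.00501 for Dhcr7). Msmo1 split the FAN ad libitum group by S number, with 25.3 and 26.5 CPM in FAN ad libitum 6 and 7, of the lowest run, and 42.8 and 41.6 CPM in FAN ad libitum 10 and 12, of the highest. Its change between regimens in FAN mice was 0.57 (adjusted p = 0.0478) within the lowest run and −0.62 (adjusted p = 0.0163) within the highest, so that the sign depended on the run.

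Per length of exon, in vehicle ad libitum libraries, the sterol members ranged from Hmgcs1 at 114 ± 11.1 RPKM (CPM divided by exon kilobases), Cyp51 at 82.3 ± 11.3 and Ebp at 80.4 ± 7.68 RPKM to Lss at 2.16 ± 0.089 and Fdps at 0.119 ± 0.0286 RPKM (SD, n = 4 each). The Fdps value is uncertain because of the same-strand overlap with Gm43738 named above. Cyp51 and Ebp did not differ beyond their spread. In FAN ad libitum libraries Hmgcs1 was at 30.3 ± 4.62, Ebp at 21.6 ± 1.70 and Cyp51 at 16.5 ± 2.17 RPKM (SD, n = 4 each).

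Feeding regimen separated FAN libraries most clearly at the entry steps, at Cyp51 and Ebp, and at Acss2 and Gpam. Between regimens in FAN mice, time-restricted over ad libitum, 8 sterol genes rose and 2 fell (4 and 12 with library size scaling), with a set median of 0.27, against −0.02 for all genes. Scaled to library size the median of all genes was −0.67, the sterol set turned to −0.37, and the 36 members split into 6 up and 21 down, with 8.61% of called genes up in place of 56.4%. The 6 that were higher under every scaling were Acat2, Hmgcs1, Cyp51, Ebp, Acss2 and Gpam, and these were also up under each other alternative tried, at 0.38 to 0.97 on the log2 scale with library size scaling against 1.02 to 1.63 with TMM scaling. Hmgcs1 was higher by 1.63 ± 0.20 on the log2 scale (adjusted p = 1.16e-05), Cyp51 by 1.30 ± 0.19 (adjusted p = 7.43e-05), Acat2 by 1.15 ± 0.12 (adjusted p = 1.06e-06) and Ebp by 1.02 ± 0.11 (adjusted p = 1.59e-06). In each of these 4 genes every FAN time-restricted library was above every FAN ad libitum library, as held for 10 members in all (15.7% of all genes), and 3 members lay below without overlap (12.3%). Mvd was higher by 0.70 (adjusted p = 0.0134), Idi1 by 0.97 (adjusted p = 0.0394), Nsdhl by 0.50 (adjusted p = 0.0106) and Stard4 by 0.44 (adjusted p = 0.0212), and with library size scaling these were 0.05, 0.31, −0.15 and −0.19, none past the threshold. Without FAN ad libitum 6 or 7 or FAN time-restricted 6 or 12, the calls of Idi1 (adjusted p = 0.0839 to 0.151) and Stard4 (adjusted p = 0.0517 to 0.0799) were also lost, and that of Idi1 without FAN ad libitum 12. Within the lowest run of S numbers Mvd was at 0.26 (adjusted p = 0.389) and Nsdhl at 0.43 (adjusted p = 0.108). Fdps was lower by 0.88 (adjusted p = 0.0492), a call that was lost under most alternatives.

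The dependence of the FAN change on feeding was tested as an interaction, the log2 FAN change under time-restricted minus that under ad libitum feeding. It passed for 6 members, all positive: Acss2, Cyp51, Hmgcs1, Acat2, Ebp and Gpam. Among all genes tested 9.16% passed, 7.76% positive and 1.4% negative, and 16.7% of the members passed. The estimates were 1.47 ± 0.18 for Acss2 (adjusted p = 7.52e-05), 1.39 ± 0.27 for Cyp51 (adjusted p = 0.00305), 1.36 ± 0.28 for Hmgcs1 (adjusted p = 0.00452), 1.10 ± 0.16 for Acat2 (adjusted p = 0.000292), 0.96 ± 0.15 for Ebp (adjusted p = 0.000443) and 0.71 ± 0.19 for Gpam (adjusted p = 0.027). With library size scaling Acss2 (0.86), Cyp51 (0.79), Hmgcs1 (0.76) and Acat2 (0.50) still passed, Ebp (0.37, adjusted p = 0.0813) and Gpam (0.11, adjusted p = 0.663) did not, and 12 other members passed with a negative sign, with all genes at a median of −0.57. Gpam also missed the threshold without FAN time-restricted 11 or 12, vehicle ad libitum 1, or vehicle time-restricted 2 or 3, at an adjusted p of 0.0535 to 0.063, and without the 2 libraries highest in adipocyte markers (adjusted p = 0.0619). Within the lowest run of S numbers the interactions of Acat2 (0.82, adjusted p = 0.0686) and Gpam (0.46, adjusted p = 0.318) did not pass. Of the 14 proximal tubule markers 10 passed the interaction with a positive sign (6 with library size scaling). Within groups, over the 16 libraries, the log2 level correlated with the log2 sum of the 14 markers at 0.83 for Acat2, 0.73 for Gpam and 0.53 for Acss2. It did so at 0.46 for Hmgcs1, 0.23 for Ebp and 0.04 for Cyp51. These correlations are descriptive, and the part of this tubule segment in the members' changes was not tested.

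**Figure D2:**
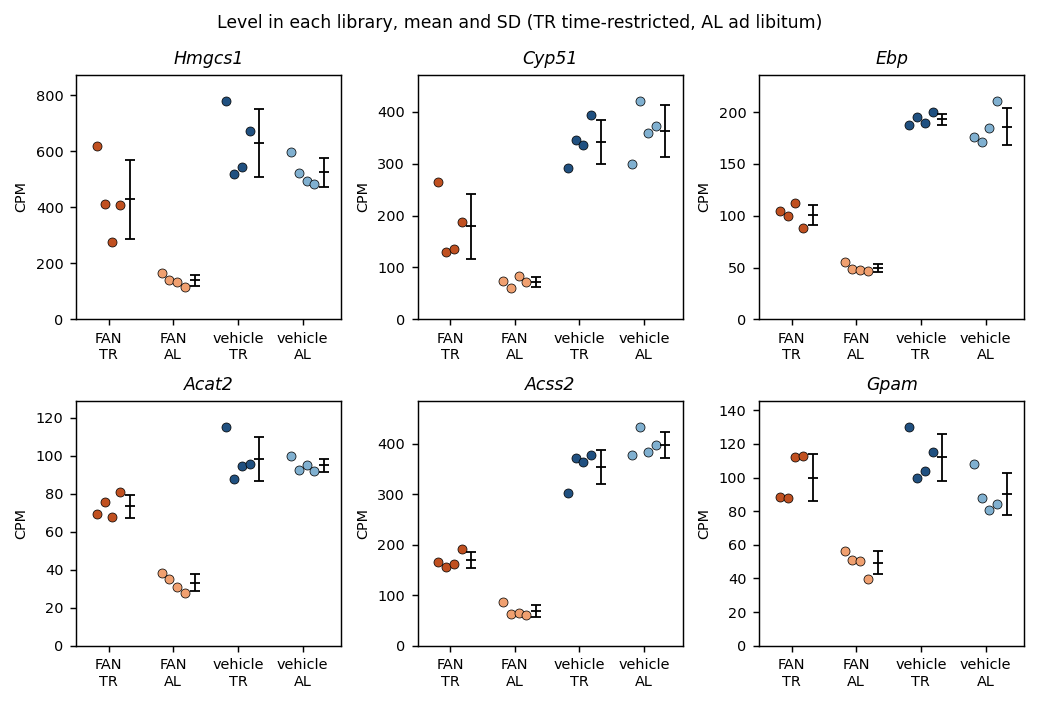
Level in CPM of the 6 members that passed the interaction, 1 point per library in each of the 4 groups, with the mean and SD as a black bar to the right of the points. FAN ad libitum libraries are lowest in every panel, for example 47.1 to 55.8 CPM for Ebp, against 88.4 to 112 CPM in FAN time-restricted libraries, while both vehicle groups overlap for every gene but Acss2, where they meet at 377 CPM.

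Of the regulators of sterol synthesis, Insig1 fell with FAN under both regimens with TMM scaling and under time-restricted feeding alone with library size scaling. Insig1, which is itself an SREBP target, had 23, 17.3, 19.2 and 22.7 CPM in FAN time-restricted and 16.7, 19.9, 15.6 and 16.6 CPM in FAN ad libitum libraries, against 38.3, 28.6, 34.8 and 31.3 CPM in vehicle time-restricted and 35.2, 35.1, 27.7 and 32 CPM in vehicle ad libitum libraries. Every FAN library was below every vehicle library. It fell by 0.69 ± 0.13 under time-restricted (adjusted p = 0.000332) and by 0.92 ± 0.13 under ad libitum feeding (adjusted p = 7.46e-06), and did not pass between regimens in FAN mice (0.25, adjusted p = 0.147). Scaled to library size, the ad libitum value was −0.21 (adjusted p = 0.161) and that between FAN regimens −0.40 (adjusted p = 0.015). Insig2, whose product has the same retention role, had 44.3, 39.5, 36.7 and 43.6 CPM in FAN time-restricted and 31.3, 26.9, 43 and 32.7 CPM in FAN ad libitum libraries. The vehicle libraries stood at 37.5, 36.1, 37.9 and 43.5 CPM under time-restricted and 35.8, 35.9, 37.6 and 37.1 CPM under ad libitum feeding. The groups overlapped and no comparison passed over all libraries with TMM scaling. Scaled to library size, Insig2 was at 0.56 with FAN under ad libitum feeding (adjusted p = 0.000206) and −0.34 between FAN regimens (adjusted p = 0.0119). Without FAN ad libitum 10 these were −0.27 (adjusted p = 0.0378) and 0.44 (adjusted p = 0.00492), so the signs depended on the setting. Within the lowest run of S numbers the change between FAN regimens was 0.58 (adjusted p = 0.0258). Stard4, which carries sterol between membranes, averaged 53.1 ± 6.03 CPM in FAN time-restricted and 39.1 ± 9.63 CPM in FAN ad libitum libraries, against 61.8 ± 4.24 CPM in vehicle time-restricted and 63.5 ± 3.83 CPM in vehicle ad libitum libraries (SD, n = 4 each). With FAN it fell by 0.70 under ad libitum feeding (adjusted p = 0.000285), a value that was −0.02 with library size scaling (adjusted p = 0.896), and under time-restricted feeding its change of −0.22 did not pass (adjusted p = 0.218).

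Srebf2 and Srebf1, the SREBP genes, were lower in time-restricted than in ad libitum libraries of FAN mice, the opposite direction to the enzymes named above. Srebf2 had 29.3, 27.3, 27.5 and 29.4 CPM in FAN time-restricted and 58, 58.7, 32.3 and 30.3 CPM in FAN ad libitum libraries, against 40.6, 40.2, 43.3 and 25.2 CPM in vehicle time-restricted and 34.4, 43.2, 33.5 and 39 CPM in vehicle ad libitum libraries. The FAN ad libitum group split by S number, with libraries 6 and 7 of the lowest run high and libraries 10 and 12 of the highest run just above the FAN time-restricted libraries. The change between regimens was −0.66 ± 0.20 (adjusted p = 0.0188), −1.02 (adjusted p = 0.00444) within the lowest run and −0.15 (adjusted p = 0.453) within the highest. Without FAN ad libitum 6 or 7 it was −0.51 in each case (adjusted p = 0.0778 and 0.0812). Srebf1 had 10.8, 13.3, 13.9 and 10.3 CPM in FAN time-restricted and 23.9, 32.1, 17.5 and 18.5 CPM in FAN ad libitum libraries, against 15.1, 15.8, 12.4 and 7.5 CPM in vehicle time-restricted and 16.8, 17.7, 19.1 and 18.6 CPM in vehicle ad libitum libraries. Time-restricted libraries lay below ad libitum libraries without overlap in both FAN and vehicle mice. The change was −0.93 ± 0.21 in FAN mice (adjusted p = 0.00262, and −0.51 with an adjusted p of 0.0955 within the highest run) and −0.50 ± 0.21 in vehicle mice (adjusted p = 0.729), and the interaction did not pass (−0.43, adjusted p = 0.396). Neither Srebf2 nor Srebf1 passed for FAN against vehicle over all libraries with TMM scaling, with changes of −0.40 and −0.08 under time-restricted and 0.26 and 0.35 under ad libitum feeding. Under ad libitum feeding both passed with library size scaling, at 0.97 (adjusted p = 0.000701) and 1.06 (adjusted p = 0.000439), and within the lowest run of S numbers, at 0.55 and 0.66 (adjusted p = 0.00902 for each). Both also passed the interaction in these settings, with a negative sign. Under time-restricted feeding Srebf2 passed with only the 2 groups compared (−0.43, adjusted p = 0.0342), without vehicle time-restricted 4 (−0.55, adjusted p = 0.0339) and within the lowest run (−0.53, adjusted p = 0.0451).

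**Figure D3:**
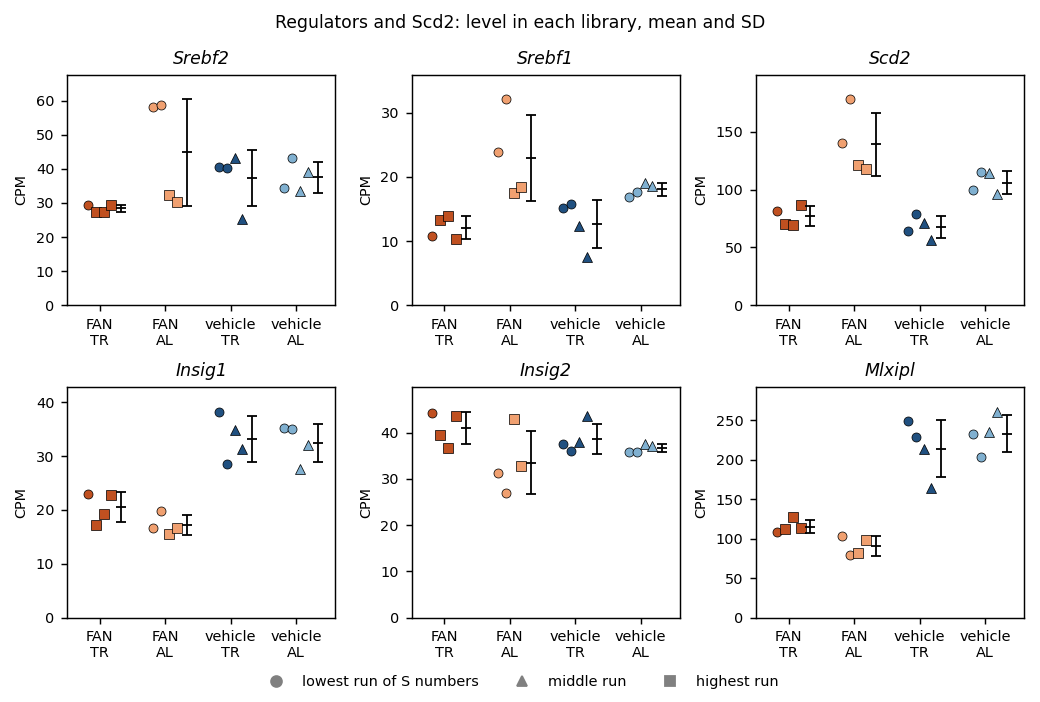
Level in CPM of Srebf2, Srebf1, Scd2, Insig1, Insig2 and Mlxipl, 1 point per library in each group, with mean and SD as a black bar and the point shape giving the run of the S number. For Srebf2 the FAN ad libitum circles stand at 58 and 58.7 CPM and the squares at 32.3 and 30.3 CPM, and for Mlxipl every FAN library is at or below 127 CPM, against at least 164 CPM in vehicle libraries.

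Mlxipl, which encodes ChREBP, was the regulator of fatty acid synthesis that fell with FAN. It had 109, 112, 127 and 113 CPM in FAN time-restricted and 103.3, 78.9, 81.9 and 98.9 CPM in FAN ad libitum libraries. In vehicle mice it was at 249, 229, 214 and 164 CPM under time-restricted and 233, 204, 235 and 261 CPM under ad libitum feeding. Every FAN library was below every vehicle library. The changes were −0.90 ± 0.14 under time-restricted (adjusted p = 3.92e-05) and −1.36 ± 0.14 under ad libitum feeding (adjusted p = 1.22e-07), and the difference between FAN regimens did not pass (0.34, adjusted p = 0.0604) although those groups did not overlap. Mlx, the partner of ChREBP on DNA and no member, was looked at after its values were seen. It averaged 25.3 ± 2.08 CPM in FAN time-restricted and 18.9 ± 2.14 CPM in FAN ad libitum libraries, against 52.5 ± 7.07 CPM in vehicle time-restricted and 48.6 ± 5.87 CPM in vehicle ad libitum libraries (SD, n = 4 each), with changes of −1.05 (adjusted p = 3.74e-06) and −1.36 (adjusted p = 5.15e-08), the second being −0.67 with library size scaling.

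The enzymes that feed and carry out fatty acid synthesis did not move as a block. Acss2, which makes acetyl-CoA from acetate, had the largest change of all members. It had 166, 156, 162 and 192 CPM in FAN time-restricted and 85.6, 62.5, 65.4 and 60.9 CPM in FAN ad libitum libraries, against 303.2, 371, 363 and 377 CPM in vehicle time-restricted and 377, 433, 383 and 397 CPM in vehicle ad libitum libraries. The FAN groups overlapped neither with each other nor with vehicle. Its level was 2.10-fold lower in FAN than in vehicle libraries under time-restricted feeding (log2 −1.07 ± 0.13, adjusted p = 3.43e-06) and 5.79-fold lower under ad libitum feeding (log2 −2.53 ± 0.13, adjusted p = 1.31e-10). Between FAN regimens it was 2.46-fold higher under time restriction (log2 1.30 ± 0.13, adjusted p = 9.53e-07), and by 0.65 on the log2 scale with library size scaling.

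Acly, which makes acetyl-CoA from citrate, went the other way in part. It averaged 111 ± 11.5 CPM in FAN time-restricted and 141 ± 56.4 CPM in FAN ad libitum libraries, against 95.4 ± 3.4 CPM in vehicle time-restricted and 98.4 ± 8.63 CPM in vehicle ad libitum libraries (SD, n = 4 each). The FAN ad libitum mean came from 176 and 200.8 CPM in libraries 6 and 7 beside 96.9 and 88.3 CPM in libraries 10 and 12. Its rise of 0.52 under ad libitum feeding (adjusted p = 0.0311) rested on the libraries 6 and 7, and was 0.39 (adjusted p = 0.112) without the first and 0.29 (adjusted p = 0.17) without the other. Leaving out FAN time-restricted 11 or vehicle ad libitum 2, 3 or 4 also ended it, at an adjusted p of 0.053 to 0.0796. Acaca, acetyl-CoA carboxylase, averaged 14 ± 2.35 CPM in FAN time-restricted and 22.4 ± 10.5 CPM in FAN ad libitum libraries, against 24.8 ± 11.1 CPM in vehicle time-restricted and 21.1 ± 3.75 CPM in vehicle ad libitum libraries (SD, n = 4 each). It fell by 0.84 under time-restricted feeding (adjusted p = 0.0328), by 0.49 without vehicle time-restricted 2, which had 40.8 CPM (adjusted p = 0.166). The call was also lost without FAN time-restricted 6 or 10 or vehicle time-restricted 3, and with library size scaling (adjusted p = 0.0706). Under that scaling Acaca was at 0.80 with FAN under ad libitum feeding (adjusted p = 0.0318) and −1.36 between FAN regimens (adjusted p = 0.00168). Fasn, fatty acid synthase, passed no test over all libraries with TMM scaling and was at −1.80 between FAN regimens with library size scaling (adjusted p = 0.0147), with averages of 22.2 ± 2.29, 47.9 ± 37.4, 44.3 ± 36.3 and 41.6 ± 7.43 CPM in FAN time-restricted, FAN ad libitum, vehicle time-restricted and vehicle ad libitum libraries (SD, n = 4 each).

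Scd2, a desaturase that introduces the first double bond, was the member nearest to a change with feeding alone. It had 81.3, 70.5, 69.6 and 86.9 CPM in FAN time-restricted and 140, 178, 121 and 118 CPM in FAN ad libitum libraries, against 64.2, 79.3, 71.1 and 56.7 CPM in vehicle time-restricted and 99.7, 115, 114 and 95.8 CPM in vehicle ad libitum libraries. Time-restricted libraries were below ad libitum libraries with no overlap in both treatments. In FAN mice the change was −0.85 ± 0.14 (adjusted p = 0.000185) and kept its call under every alternative tried, −0.99 and −0.66 within the lowest and highest runs of S numbers. In vehicle mice it was −0.65 ± 0.14 (adjusted p = 0.186). The interaction was −0.21 (adjusted p = 0.565). With FAN it was higher by 0.39 under ad libitum feeding (adjusted p = 0.0216), which became 0.25 (adjusted p = 0.108) when FAN ad libitum 7 was left out, 0.36 (adjusted p = 0.0597) when vehicle ad libitum 1 was and 0.34 (adjusted p = 0.0707) when vehicle ad libitum 4 was.

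Elovl5, an elongase of polyunsaturated fatty acids, was the member that rose with FAN under time-restricted feeding. It had 73.2, 70.4, 64 and 65.2 CPM in FAN time-restricted and 61.1, 62.7, 58.2 and 59.7 CPM in FAN ad libitum libraries, against 50.7, 59.3, 54.8 and 47.2 CPM in vehicle time-restricted and 59, 58.8, 62.1 and 58.8 CPM in vehicle ad libitum libraries. The FAN time-restricted libraries were the highest of all 16, and the rise was 0.36 ± 0.09 (adjusted p = 0.00419), or 0.34 (adjusted p = 0.121) within the lowest run of S numbers. Fads2, the first desaturase of the same pathway, averaged 66.2 ± 7.73 CPM in FAN time-restricted and 50.2 ± 24.1 CPM in FAN ad libitum libraries, against 124 ± 11.4 CPM in vehicle time-restricted and 137 ± 15.7 CPM in vehicle ad libitum libraries (SD, n = 4 each). It fell by 0.91 (adjusted p = 0.00553) under time-restricted and by 1.44 (adjusted p = 5.78e-05) under ad libitum feeding, with no overlap of groups, and with the run of S numbers in the model the time-restricted value was −0.37 (adjusted p = 0.38). Fads1 and Elovl6 passed no test over all libraries with TMM scaling, with FAN changes of 0.12 and 0.09 under time-restricted and 0.18 and 0.12 under ad libitum feeding. Library size scaling put them at 0.88 and 0.80 with FAN under ad libitum feeding (adjusted p = 3.12e-05 and 0.00985) and at −0.58 and −0.89 between FAN regimens (adjusted p = 0.00214 and 0.00666).

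The 3 glycerolipid enzymes all fell with FAN under ad libitum feeding, though with library size scaling Dgat2 alone did. Gpam, the mitochondrial acyltransferase that starts glycerolipid synthesis, had 88.4, 88.1, 112 and 113 CPM in FAN time-restricted and 56.3, 51, 50.6 and 39.8 CPM in FAN ad libitum libraries, against 130, 99.5, 104 and 115 CPM in vehicle time-restricted and 108, 87.7, 80.8 and 84.1 CPM in vehicle ad libitum libraries. FAN ad libitum libraries stood alone at the bottom, and FAN time-restricted libraries overlapped with both vehicle groups. The changes with FAN were −0.16 ± 0.14 (adjusted p = 0.355) under time-restricted and −0.87 ± 0.14 (adjusted p = 2.65e-05) under ad libitum feeding, where library size scaling gave −0.17 (adjusted p = 0.266). Between FAN regimens Gpam was 2.03-fold higher under time restriction (log2 1.02 ± 0.14, adjusted p = 2.56e-05), and by 0.38 on the log2 scale with library size scaling.

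Dgat2 and Dgat1 catalyse the last step of triglyceride synthesis. Dgat2 averaged 50.6 ± 11.1 CPM in FAN time-restricted and 29.1 ± 19.9 CPM in FAN ad libitum libraries, against 128 ± 16.1 CPM in vehicle time-restricted and 112 ± 6.64 CPM in vehicle ad libitum libraries (SD, n = 4 each). The FAN ad libitum libraries fell apart by S number, at 36.7 and 53.7 CPM in libraries 6 and 7 and 14.8 and 11.3 CPM in libraries 10 and 12. Its falls with FAN were 1.34 (adjusted p = 0.00577) and 1.94 (adjusted p = 0.000194) under the time-restricted and ad libitum regimens, and with the run of S numbers in the model the time-restricted value was −0.54 (adjusted p = 0.408). Between FAN regimens the change was 0.79 (adjusted p = 0.0962), −0.14 (adjusted p = 0.699) within the lowest run and 2.04 (adjusted p = 0.00138) within the highest. Fads2 gave −0.26 (adjusted p = 0.253) and 1.22 (adjusted p = 0.00206) in the same runs. Dgat1 fell by 0.52 (adjusted p = 0.00476) and 0.49 (adjusted p = 0.00415) with FAN under the time-restricted and ad libitum regimens, and with library size scaling these were −0.42 (adjusted p = 0.0525) and 0.21 (adjusted p = 0.258).

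Thrsp and Scd1 had their highest levels in libraries with high adipocyte markers. Thrsp, a nuclear protein that promotes lipogenesis in fat and liver, averaged 8.41 ± 2.68, 8.84 ± 8.59, 17.3 ± 20.6 and 15.3 ± 12.6 CPM in FAN time-restricted, FAN ad libitum, vehicle time-restricted and vehicle ad libitum libraries (SD, n = 4 each). The 11 adipocyte markers summed to 126 to 234, 56.5 to 322, 75.9 to 1040 and 110 to 585 CPM in the same groups, none of the 11 passed a test in any comparison with TMM scaling, and Adipoq, a hormone of fat cells, reached 1704 counts. The 3 libraries with the highest sums, vehicle time-restricted 2 at 1040, vehicle ad libitum 3 at 585 and FAN ad libitum 7 at 322 CPM, had the 3 highest Thrsp levels, at 47.7, 34 and 20.4 CPM. FAN ad libitum 6, with the lowest sum of 56.5 CPM, had the lowest Thrsp level of 1.42 CPM. Scd1, the main desaturase of fat and liver, was at 467 CPM in vehicle time-restricted 2 and 34.5 to 190 CPM in all other libraries. Neither gene passed a test over all libraries with TMM scaling. Scd1 passed for FAN under ad libitum feeding with only the 2 groups compared (−0.83, adjusted p = 0.0314), and under time-restricted feeding without vehicle time-restricted 1 (−1.67, adjusted p = 0.0488) or 4 (−1.70, adjusted p = 0.0279). Without vehicle time-restricted 2 and vehicle ad libitum 3, the FAN change under time-restricted feeding was 0.19 for Thrsp and −0.16 for Scd1, in place of −1.08 and −1.36, and that of Fasn was −0.29 in place of −1.01. Within groups, over the 16 libraries, the log2 level correlated with the log2 adipocyte sum at 0.96 for Thrsp and 0.88 for Scd1. It did so at 0.69 for Elovl6, 0.65 for Elovl5, 0.58 for Fasn and 0.57 for both Acaca and Scd2. The remaining fatty acid enzymes were at 0.20 (Fads1), −0.03 (Acly), −0.11 (Acss2) and −0.17 (Fads2). With the log2 proximal tubule sum the same enzymes were at −0.06 (Fads1), 0.6 (Acly), 0.53 (Acss2) and 0.65 (Fads2). These correlations are descriptive, and the part of fat tissue in the levels of the other members was not tested.

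**Figure D4:**
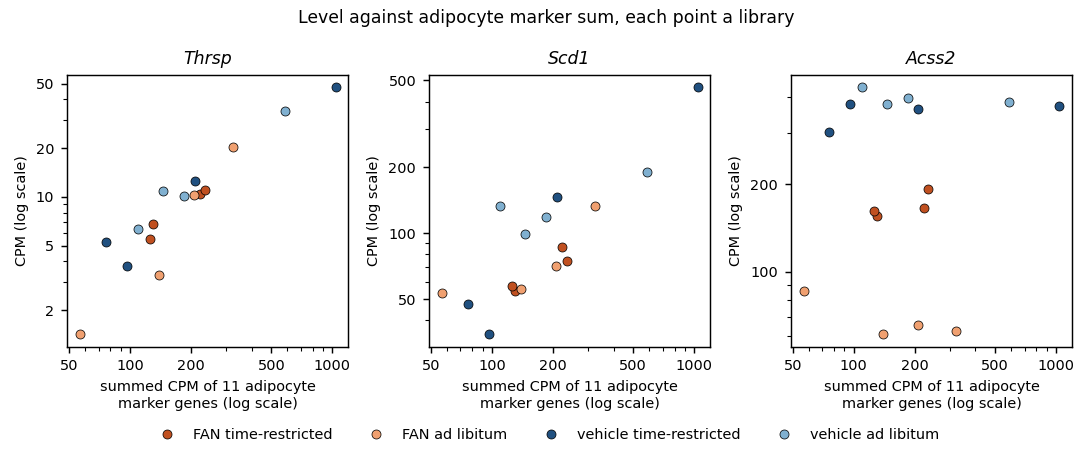
Level of Thrsp, Scd1 and Acss2 in CPM against the summed CPM of 11 adipocyte markers, both on log scales, 1 point per library and a colour per group. The 3 highest Thrsp points, up to 47.7 CPM, lie at the 3 highest sums, up to 1040 CPM, whereas Acss2 lies in bands by group, 156 to 192 CPM in FAN time-restricted and 60.9 to 85.6 CPM in FAN ad libitum libraries, against 303.2 to 433 CPM in vehicle libraries.

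Feeding regimen alone gave no called member in vehicle mice. None of the 17731 genes passed by edgeR's quasi-likelihood test (0% called), with 6.45% of genes and 3 of the 36 members at an unadjusted p under 0.05, and a smallest adjusted p of 0.186 among members. DESeq2 called 58 genes, of which Scd2 was the only member (log2 −0.64, adjusted p = 0.00858). The vehicle groups did not overlap for 4 members, Scd2, Srebf1, Lss and Acss2, each lower in time-restricted libraries, where 2% of all genes were lower without overlap and 2.85% higher.

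**Figure D5:**
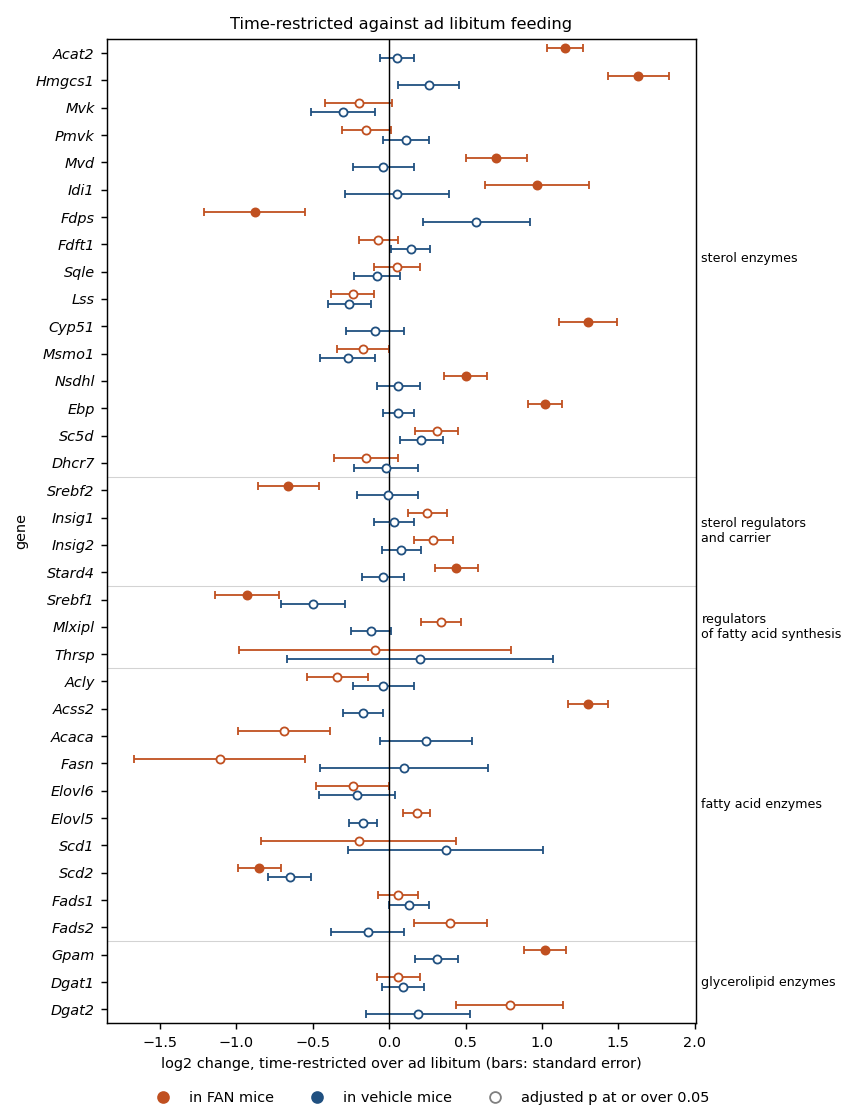
Log2 change of each member, time-restricted over ad libitum feeding, in FAN mice (orange) and vehicle mice (blue), with the standard error as a bar and open points where the adjusted p was 0.05 or higher. In vehicle mice all points are open, and in FAN mice Hmgcs1, Acss2, Cyp51, Acat2, Ebp and Gpam lie between 1.02 and 1.63, whereas with library size scaling 21 members lie below 0 and only these 6 above it at an adjusted p under 0.05.

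Other genes of the pathways were counted from fixed lists. Of all genes tested, 19% fell and 24.5% rose with FAN under time-restricted feeding. Under ad libitum feeding 28.6% fell and 32.1% rose. With library size scaling 72.7% of all genes were called under ad libitum feeding, 83.9% of them up. The counts below are to be read against these shares. Of 13 further genes of sterol synthesis and its control, 3 fell and 3 rose with FAN under time-restricted feeding, and 6 fell and 2 rose under ad libitum feeding (1 and 8 with library size scaling). Of 8 genes of sterol export and storage, 2 fell and 3 rose under time-restricted feeding, and 2 fell and 6 rose under ad libitum feeding (1 and 6 with library size scaling). Abca1, the exporter of cholesterol to lipoproteins, averaged 73.7 ± 11.7 CPM in FAN time-restricted and 82.3 ± 14.9 CPM in FAN ad libitum libraries, against 18.4 ± 2.81 CPM in vehicle time-restricted and 20.6 ± 4.70 CPM in vehicle ad libitum libraries (SD, n = 4 each), a rise of 2.0 on the log2 scale under time-restricted (adjusted p = 1.23e-07) and of 2.0 under ad libitum feeding (adjusted p = 2.54e-08). Of the macrophage markers, 9 of 10 and 10 of 10 rose in the same comparisons, and their part in the rise of Abca1 was not tested. Of 18 tested genes of fatty acid synthesis and its control, 6 fell and 4 rose under time-restricted feeding, and 10 fell and 3 rose under ad libitum feeding (5 and 7 with library size scaling). Of 10 glycerolipid genes 6 fell and none rose under each regimen, though with library size scaling 4 fell and 3 rose under ad libitum feeding.

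Me1, the malic enzyme that supplies NADPH for fatty acid synthesis, and Mogat1, a monoacylglycerol acyltransferase, gave the strongest contrasts with feeding among these genes. Me1 averaged 500 ± 44 CPM in FAN time-restricted and 150 ± 13.9 CPM in FAN ad libitum libraries (SD, n = 4 each), with no overlap (log2 1.74 ± 0.12, adjusted p = 4.64e-08). Vehicle ad libitum libraries averaged 605 ± 34.5 CPM (SD, n = 4), so that the fall with FAN under ad libitum feeding was 2.02 (adjusted p = 3.1e-10). Mogat1 averaged 179 ± 27.3 CPM in FAN time-restricted and 45.7 ± 7.98 CPM in FAN ad libitum libraries (SD, n = 4 each; log2 1.97 ± 0.15, adjusted p = 1.13e-07), against 233 ± 33.4 CPM in vehicle ad libitum libraries. Both passed the interaction, at 1.54 (adjusted p = 3.06e-05) and 1.65 (adjusted p = 7.52e-05), and with library size scaling at 0.94 and 1.05. Hacd2, a dehydratase of fatty acid elongation, averaged 103.4 ± 9.21 CPM in FAN time-restricted and 46 ± 6.51 CPM in FAN ad libitum libraries (SD, n = 4 each), a rise of 1.17 (adjusted p = 3.17e-06), and passed the interaction at 1.03 (adjusted p = 0.00122). Library size scaling gave 0.53 (adjusted p = 0.00075) and 0.44 (adjusted p = 0.0411). Fads3, a desaturase-like gene, fell with FAN by 0.97 under time-restricted (adjusted p = 1.28e-06) and by 1.52 under ad libitum feeding (adjusted p = 2e-09), the second being −0.82 with library size scaling (adjusted p = 6.38e-06). Acsl4, which activates arachidonic acid, rose by 1.46 under time-restricted feeding (adjusted p = 8.19e-07). In each FAN comparison 11 of the 14 proximal tubule markers fell as well, and in FAN mice 11 of them (8 with library size scaling) were higher under time-restricted feeding. Their part in these changes was not tested.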

How the data were processed

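RNA was taken with TRIzol from frozen kidney powder and made into libraries with a TruSeq Stranded mRNA kit, per the labels. The deposited table holds the authors' raw read counts per Ensembl gene, 1 column per library. The submitters' processing notes name the build mm10 and the tools STAR (2.5.3a), FastQC (0.11.5) and edgeR (3.26.7) without their role, and the strand setting of the counting is not given in the sources used here, so antisense overlap is reported as uncertain. FAN columns were assigned to their group by name and vehicle columns to their sample. All 16 libraries entered 1 fit in R 4.3.3: counts were filtered with filterByExpr (minimum count 10), scaled by TMM and tested with edgeR 4.0.16 (two-sided quasi-likelihood test, Benjamini-Hochberg adjustment over all 17731 genes, threshold 0.05), after the procedure was tested on simulated data. The simulated data held few changed genes, as many up as down, and no effect of the run of S numbers. They do not probe the choice of scaling. CPM use the TMM scaling, and fold changes, standard errors and p-values come from the fit. RPKM divide by the exon length of GENCODE M21, matched by Ensembl ID. A count of 0 allows up to 3 counts, which is 0.0615 to 0.279 CPM with TMM scaling at these depths, for counting error only. Replicates differed by more than sampling noise, with a lowest chi-square per gene of 18.4. In FAN ad libitum it was 20.7 between libraries 6 and 7 and 26.7 between 10 and 12. Across these pairs, which follow the run of S numbers, it was 146 to 155, against at most 86 within any other group. The 4 FAN ad libitum libraries were thus not evenly spread. Alternatives were other scalings, no filter, DESeq2 1.42.0, leaving out each library, fitting only the 2 groups compared, the run of the S number as a covariate, and, chosen after seeing the data, fits within 1 run of S numbers and without the libraries high in adipocyte markers. The members and lists were chosen with earlier results of these data known. Library values are printed for the 6 members of smallest p in each comparison and for the regulators Srebf1, Srebf2, Insig1, Insig2 and Mlxipl, and of the other pathway genes the 3 of smallest p in each comparison are named.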

Additional observations from a re-analysis of the deposited data

Results flagged for a closer look

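The FAN change differed between feeding regimens, by the interaction term of edgeR's quasi-likelihood test, for Acss2 (1.47), Cyp51 (1.39), Hmgcs1 (1.36), Acat2 (1.10), Ebp (0.96) and Gpam (0.71), on the log2 scale, time-restricted minus ad libitum. In the same test with library size scaling, Ebp (0.37, adjusted p = 0.0813) and Gpam (0.11, adjusted p = 0.663) did not pass.

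Of 144 groups of 4 libraries, 8 had a library far from the other 3, where chance gives about 1 in 20 groups. FAN time-restricted 6 had the highest Nsdhl level of its group, at 45.2 CPM, and FAN ad libitum 7 the lowest Fdft1 level, at 29.5 CPM. In the vehicle time-restricted group, library 4 was lowest for Mvd (40.9 CPM) and Fads1 (40.2 CPM) and library 3 highest for Acly (100.5 CPM). In the vehicle ad libitum group, library 1 was lowest for Sqle (46.1 CPM) and library 3 highest for Elovl5 (62.1 CPM) and Thrsp (34 CPM).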

How the results depend on the processing

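Scaling decided the most. With library size scaling 13 members rose and 10 fell with FAN under ad libitum feeding, in place of 3 and 19. Between FAN regimens 27 members passed, 6 up and 21 down, in place of 10 and 4, and 16 passed the interaction, 12 of them negative. Of all genes 11502 in place of 5639 passed between FAN regimens and 6631 in place of 1625 for the interaction. Values that changed sign under this scaling, past the threshold before or after, were, with FAN under ad libitum feeding, Sqle (0.17), Lss (0.01), Mvk (0.13), Pmvk (0.43), Insig2 (0.56) and Dgat1 (0.21). Between FAN regimens they were Sqle (−0.61), Sc5d (−0.34), Nsdhl (−0.15), Insig1 (−0.40), Insig2 (−0.34), Stard4 (−0.19), Elovl5 (−0.47), Fads1 (−0.58) and Dgat1 (−0.58), and for the interaction Lss (−0.59) and Sc5d (−0.49). With the run of S numbers in the model, 11 members passed for FAN under time-restricted feeding, 2 up and 9 down, and 2 were down between FAN regimens, and of all genes 4974 passed under time-restricted feeding in place of 7719. Within the lowest run 5 members rose with FAN under ad libitum feeding, 11 passed under time-restricted feeding (0 up and 11 down), 2 interactions were negative and Msmo1 was higher between FAN regimens (0.57). The lowest-run fit held 1 FAN time-restricted library, so its member counts are not read against a share of all genes. Within the highest run 10 members were up and 2 down between FAN regimens, where 12.2% of all genes were called, 80.8% of them up. DESeq2 called 1 member lower under time restriction in vehicle mice and 1 negative interaction. With only the 2 groups compared in the fit, 1 member rose with FAN under ad libitum feeding. Leaving out 1 library at a time gave 19 to 22 members for FAN under ad libitum feeding (1 to 3 up, 17 to 19 down), 15 to 20 under time-restricted feeding (1 up, 14 to 19 down), 11 to 16 between FAN regimens (8 to 11 up, 2 to 5 down), 0 between vehicle regimens and 5 to 7 for the interaction (5 to 7 up, 0 to 1 down). A replicate block in the vehicle libraries gave 0 members and 0 genes. Same-numbered vehicle libraries correlated at 0.18, 0.12, −0.15 and −0.01 in their deviations, within the −0.28 to 0.32 of differently numbered ones. These values gave no sign of pairing by number, but with 4 libraries per group they cannot exclude it. FAN columns could not be tied to single samples, so no paired fit was made there. Fdps had the fewest counts of the members, 7 to 63 per library, which limits its precision. Beyond what each setting itself changes, the cause of these shifts was not tested.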
